A study of Mus musculus with 16 samples.

Results

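Bulk RNA sequencing of cortical bone was compared between female C57BL/6 mice given the AhR inhibitor BAY2416964 (BAY) and mice given vehicle (VEH), for the protein-coding genes with enough reads to be measured. Both groups were 18 months old at the start. BAY-treated mice received 30 mg/kg by oral gavage on 5 days per week for 8 weeks, and VEH-treated mice received the carrier of ethanol, Solutol and water on the same schedule. No transgene or altered allele is named for either group, and each group had 4 mice with 1 library per mouse. In both groups the tissue was the bone shaft left after marrow cells had been harvested for culture, which was then digested with collagenase and frozen. Of the 38933 genes in the table, 20515 are protein coding, and 7680 of these (37.4%) reached 20 CPM, which are counts scaled to a common library total, in at least 4 of the 8 libraries. These 7680 genes are called members below. The fourth-highest level was 20.014 CPM for Capn15 and 20.053 CPM for Kcnj14, just inside the limit, and 19.995 CPM for Scarf2 and 19.950 CPM for Far2, just outside it. The limit was passed through the VEH libraries alone by 0 members and through the BAY libraries alone by 1 member. For 1423 members it was reached in exactly 4 libraries, which can lie mostly in 1 group, as for Dse and Pwwp4c below. The 8 bone libraries are part of a series of 16, of which the other 8 come from the tibialis anterior (TA) muscle of the same treatment groups.

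AhR, the aryl hydrocarbon receptor, is a ligand-activated transcription factor that pairs with Arnt and binds DNA, and kynurenine is among its ligands. A cortical shaft holds osteocytes buried in mineral, osteoblasts and osteoclasts on its surfaces, blood and marrow cells in its canals, and a rim of attached tendon and skeletal muscle that dissection may leave behind. RNA from such a shaft is therefore a mixture, and in bulk RNA fewer cells of a type and less RNA per cell cannot be told apart.

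The reads counted on genes ranged from 1086224 to 6951845 in VEH libraries and from 930310 to 2418086 in BAY libraries, so that 20 CPM stood for 18.6 reads in BAY 4 and for 139.0 reads in VEH 1. Chemosensory receptor genes, which encode the odorant and pheromone receptors of the nose, served as a measure of reads that do not follow from transcription in bone. The 20 CPM limit was meant to leave genes above such a background, and the data went against it. Of the 1483 receptor genes in the table, 236 (15.9%) were themselves members. The median receptor level was 0.144, 20.3, 3.54 and 16.0 CPM in VEH 1 to 4, and 7.60, 7.03, 7.13 and 26.9 CPM in BAY 1 to 4. Per kilobase of exon, the median member stood at 22.2 times the median receptor in VEH 1 but at 0.960, 2.47 and 1.11 times in VEH 2 to 4, and at 1.67, 1.50, 1.84 and 0.773 times in BAY 1 to 4. At least 3 times the receptor level was reached by 7164 members in VEH 1, by 3105 in VEH 3 and by 1866 in BAY 3, but by only 137 in VEH 2 and 63 in BAY 4. In at least 4 libraries 1055 members (13.7%) reached it, and in all 8 libraries 41 did (0.534%). VEH 1 thus stood far above the other libraries and VEH 2 and BAY 4 at the other end. The receptor median of VEH 1 equals about a single read and is imprecise. The nearest library was one of the other treatment group for VEH 2, VEH 3, VEH 4, BAY 3 and BAY 4. Values are given below with all 8 libraries and without VEH 1.

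**Figure D1:**
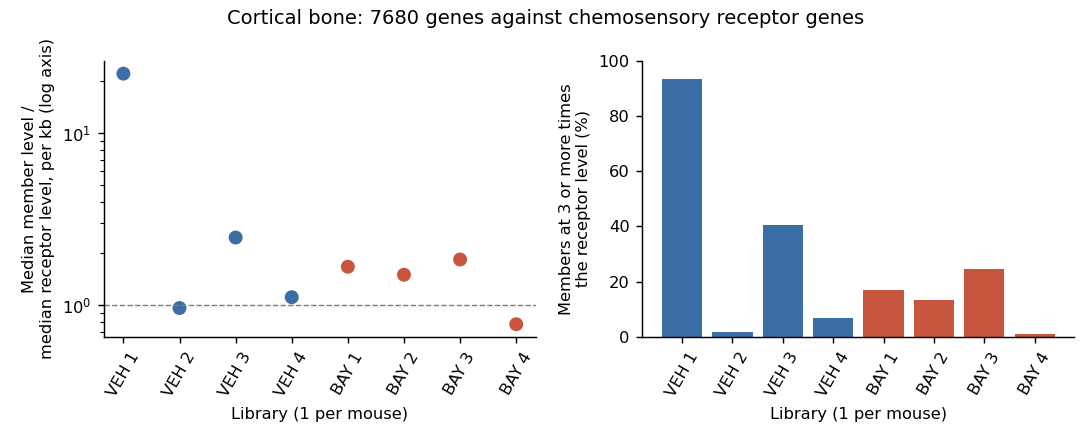
Member genes against chemosensory receptor genes in the 8 cortical bone libraries (VEH blue, BAY red). Left, the median level of members divided by the median level of receptor genes, per kilobase of exon, on a log axis with a dashed line at 1. Right, the percentage of members at 3 or more times the receptor level, which was 93.5% in VEH 1 and 0.823% in BAY 4.

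Bone matrix genes were high in VEH 1, VEH 3, VEH 4 and BAY 3 and low in VEH 2, BAY 1, BAY 2 and BAY 4, so that each group held libraries of both kinds. Col1a1, which encodes the main chain of bone collagen and lies on chromosome 11 (94827050 to 94843869, mm39), was at 4027.6, 781.6, 16601.2 and 13077.5 CPM in VEH 1 to 4. In BAY 1 to 4 it was at 1144.8, 941.7, 12881.4 and 1100.7 CPM. BAY 3 lay among the high VEH libraries and VEH 2 below every BAY library. On the scale centred on each library's median member, limma gave Col1a1 a log2 fold change (BAY minus VEH) of -1.72 (SE 2.16, exact permutation P = 0.400), with a 95% interval from -6.59 to 3.15. Without VEH 1 it was -1.33 (SE 2.05, exact permutation P = 0.486).

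Bglap, which encodes the osteoblast hormone and matrix protein osteocalcin, divided the libraries in the same way. Its levels were 42.0, 4.60, 258.5 and 202.2 CPM in VEH and 17.1, 16.5, 171.7 and 14.6 CPM in BAY. The log2 fold change was -1.31 (SE 1.44) with all libraries and -0.95 (SE 1.57) without VEH 1. Sparc, a collagen-binding glycoprotein of bone matrix, was at 494.5, 126.1, 1509.4 and 1745.0 CPM in VEH and at 156.9, 137.7, 1480.3 and 240.8 CPM in BAY. Ibsp, bone sialoprotein, was at 361.5, 42.3, 962.0 and 677.0 CPM in VEH and at 55.4, 64.1, 747.0 and 152.6 CPM in BAY. In each of these genes the groups overlapped. Of 30 listed osteoblast and bone matrix genes, 23 were members and all 23 had a log2 fold change below 0, with a median of -1.43 and a range from -1.99 to -0.35. The median over all 7680 members was 0.03, and 52.1% of members were above 0. Without VEH 1 all 23 were still below 0, with a median of -1.0, beside 0.00 and 50.2% above 0 over all members. The median centred level of these 23 genes was 1.95 ± 1.44 in VEH and 0.88 ± 1.36 in BAY (SD, n = 4 each), a difference smaller than the spread within either group. None of the 23 was called, with or without VEH 1. Without VEH 2, 18 of them were called lower, in a fit that called 8.28% of all members lower.

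Centred on each library's median member, genes of osteocytes were spread in the same way, with VEH 3 highest. Summed in CPM over the 20 listed genes, VEH 1 was at 345.8, below VEH 2 at 733.2. Sost, which encodes the Wnt antagonist sclerostin, was at 54.1, 32.2, 897.8 and 174.7 CPM in VEH and at 17.4, 14.1, 331.5 and 34.4 CPM in BAY. It had the lowest log2 fold change of any bone-list gene, -2.0 (SE 1.29, exact permutation P = 0.314), and -1.92 (SE 1.43, exact permutation P = 0.314) without VEH 1. Dmp1, an acidic matrix phosphoprotein, was at 132.9, 47.9, 2077.0 and 423.0 CPM in VEH and at 44.3, 33.9, 813.7 and 82.8 CPM in BAY. Phex, a peptidase needed for normal phosphate handling, was at 19.0, 23.9, 307.5 and 176.2 CPM in VEH and at 10.7, 9.10, 168.6 and 52.7 CPM in BAY. For all of these genes BAY 3 lay between the VEH libraries, and only BAY 1 and BAY 2 lay below all of them in CPM. Mepe, another matrix phosphoprotein, was not a member, with its highest level at 506.7 CPM in VEH 3. Among 13 osteocyte members 11 were below 0 in either fit, with medians of -0.63 and, without VEH 1, of -0.79. The median was -0.14 without VEH 3, the library with the highest level of these genes. At least 3 times the receptor level was reached by 13, 0, 11 and 4 of these 13 in VEH 1 to 4 and by 2, 2, 6 and 1 in BAY 1 to 4. None of the 20 listed osteocyte genes and none of the 30 osteoblast genes was listed at 0 in any library.

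Osteoclast genes were likewise lower in the libraries with little bone RNA. Ctsk, the collagen-degrading protease cathepsin K, was at 78.7, 17.5, 193.5 and 249.0 CPM in VEH and at 29.5, 19.9, 283.1 and 45.1 CPM in BAY. BAY 3 held the highest value of all 8 libraries and VEH 2 the lowest. Acp5, tartrate-resistant acid phosphatase, was at 59.4, 20.3, 248.7 and 262.8 CPM in VEH and at 14.3, 15.3, 334.0 and 50.5 CPM in BAY. Mmp9, a gelatinase, had a log2 fold change of -1.39 (SE 1.04) with all libraries and of -1.08 (SE 1.12) without VEH 1. All 10 osteoclast members were below 0 in either fit, with medians of -0.80 and -0.64, and none was called. Without VEH 2, 5 of them were called lower (median -1.26), in a fit that called 8.28% of all members lower. Without BAY 3, 4 were called lower (median -1.27), beside 2.16% of all members. Leaving out any other single library gave no call in this list, and the median was -0.50 without VEH 3. Of these 10, the numbers at 3 times the receptor level or more were 10, 0, 8 and 5 in VEH 1 to 4 and 2, 2, 6 and 0 in BAY 1 to 4. The list of cartilage and tendon genes (8 members) had a median of -1.04, which moved to -0.39 without VEH 1, the library with the highest level of this list.

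**Figure D2:**
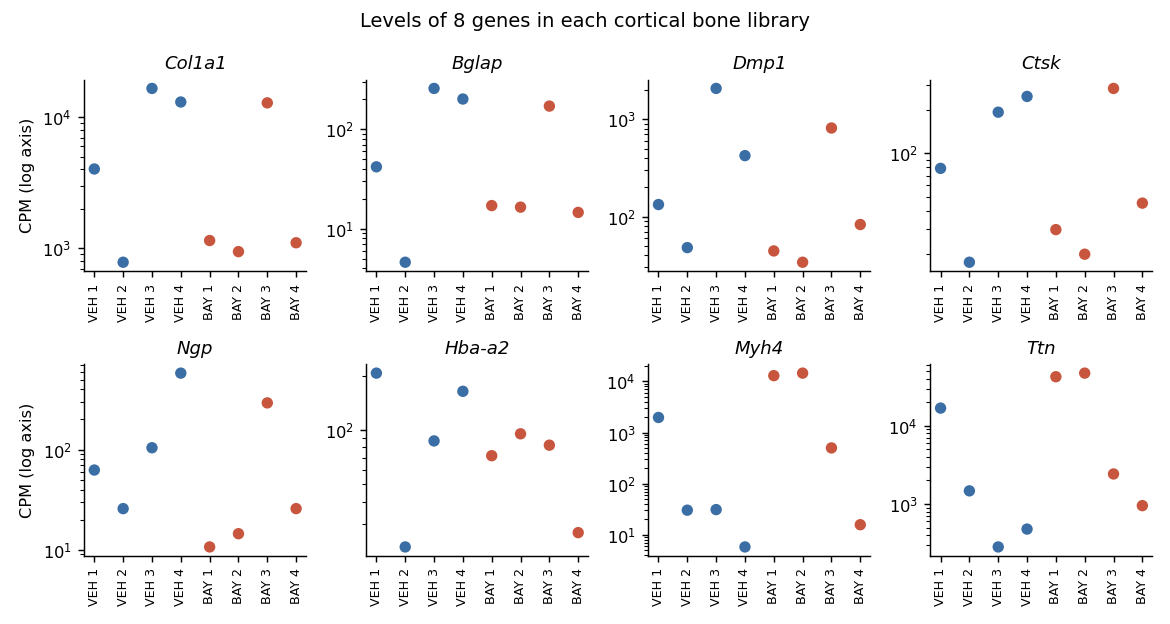
Levels of 8 genes in each library in CPM on log axes (VEH blue, BAY red), with bone genes in the upper row, marrow and blood genes at lower left and muscle fibre genes at lower right. In the bone genes BAY 3 sits with VEH 3 and VEH 4, in Ttn VEH 1 sits nearest to BAY 1 and BAY 2, and in Myh4 it lies between them and BAY 3.

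Marrow and blood genes were present although marrow had been removed. Ngp, a neutrophil granule protein, was at 62.6, 25.8, 104.5 and 580.2 CPM in VEH and at 10.7, 14.5, 292.8 and 25.8 CPM in BAY. Mpo, the myeloperoxidase of neutrophil granules, was at 41.3, 17.5, 150.3 and 475.5 CPM in VEH and at 7.15, 10.8, 335.4 and 50.5 CPM in BAY. S100a9, a calcium-binding protein of neutrophils, was at 26.0, 8.29, 92.5 and 219.1 CPM in VEH and at 6.71, 18.6, 136.5 and 14.0 CPM in BAY. VEH 4 held the highest value of all 3 genes and BAY 3 the next, so the groups overlapped. For Ngp the log2 fold change was -1.95 (SE 1.20, exact permutation P = 0.286) with all libraries and -1.66 (SE 1.30, exact permutation P = 0.314) without VEH 1. All 7 neutrophil members were below 0, with a median of -1.30, and all 7 were below 0 without VEH 1, with a median of -0.91. The group values of the list were 1.24 ± 1.91 in VEH and -0.18 ± 1.78 in BAY (SD, n = 4 each). The granule genes S100a8, Camp and Elane did not pass the level limit, with highest levels of 178.4, 96.8 and 85.2 CPM, all in VEH 4.

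Haemoglobin genes gave a different order. Hba-a2, an alpha-globin gene, was at 207.2, 22.4, 87.0 and 164.2 CPM in VEH and at 72.0, 95.3, 82.4 and 26.9 CPM in BAY. Hbb-bs, a beta-globin gene, was at 217.0, 29.3, 98.0 and 219.8 CPM in VEH and at 77.4, 103.3, 86.8 and 15.5 CPM in BAY. VEH 1 and VEH 4 were high and VEH 2 and BAY 4 low in both, and the near-identical globin copies may share reads. The log2 fold change of Hba-a2 went from -0.88 (SE 1.07) to 0.02 (SE 0.87) without VEH 1, and that of Hbb-bs from -1.27 (SE 1.13) to -0.43 (SE 1.00). Over the 12 erythroid members the median went from -0.73 to -0.20. Without VEH 2 it was -1.44, and 5 of the 12 were called lower, in a fit that called 8.28% of all members lower. Alas2, the first enzyme of erythroid haem synthesis, was not a member and reached 33.4 CPM in VEH 1.

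Among 10 macrophage and monocyte members 9 were below 0 in either fit, with medians of -0.43 and -0.37. Lyz2, the lysozyme of myeloid cells, was at 59.7, 18.4, 76.9 and 498.7 CPM in VEH and at 21.0, 30.2, 240.9 and 44.1 CPM in BAY. B lineage genes pointed the other way, with 3 of 4 members above 0 and a median of 0.68, or 0.32 without VEH 1. These members were close to the receptor level, at 3 times of which they stood in 18.8% of their values. Cd79a, the B cell receptor subunit, was not a member and reached 13.7 CPM in BAY 3. Cd74, the invariant chain of antigen-presenting cells, had a log2 fold change of -0.82 (SE 1.19), and of -0.40 (SE 1.27) without VEH 1. None of 14 listed T and NK cell genes was a member. No marrow-list gene was called in either fit.

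Skeletal muscle genes had the widest spread of all and divided the libraries differently from bone genes. Myh4, the myosin heavy chain of the fastest fibres (chromosome 11, 67128855 to 67151273), was at 1966.8, 30.4, 31.2 and 5.82 CPM in VEH 1 to 4. In BAY 1 to 4 it was at 12904.6, 14461.2, 500.3 and 15.8 CPM. BAY 1, BAY 2 and VEH 1 were high, BAY 3 was in between, and BAY 4 lay among VEH 2, VEH 3 and VEH 4. Per kilobase, Myh4 stood at 0.705, 3.94 and 0.167 times the median receptor in VEH 2 to 4 and at 0.280 times in BAY 4, so 3 of these 4 values were below the background. With all libraries the log2 fold change of Myh4 was 3.91 (SE 2.77, exact permutation P = 0.314). Without VEH 1 it was 6.12 (SE 2.36), which was called, with P = 0.0298 and adjusted P = 1.000 by limma and an exact permutation P of 0.143.

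Acta1, the actin of skeletal muscle fibres, was at 703.8, 29.5, 5.67 and 1.46 CPM in VEH and at 2848.7, 3172.3, 107.4 and 3.22 CPM in BAY. Ckm, the creatine kinase that buffers ATP in muscle, was at 274.5, 26.7, 4.25 and 5.10 CPM in VEH and at 1340.4, 1553.8, 58.5 and 12.9 CPM in BAY. Ttn, the giant spring protein of the sarcomere, was at 16845.8, 1473.9, 282.7 and 478.3 CPM in VEH and at 42421.3, 47183.7, 2422.9 and 953.5 CPM in BAY. In each gene the same 3 libraries were high and BAY 4 overlapped with the VEH range. Leaving out VEH 1 moved Ckm from 2.97 (SE 2.13) to 4.73 (SE 1.76, exact permutation P = 0.114), which was called. It moved Ttn from 2.26 (SE 2.65) to 3.97 (SE 2.04, exact permutation P = 0.143), which was not. Tnnt3, the fast troponin T, was at 326.2, 4.60, 2.48 and 0.728 CPM in VEH and at 1176.1, 1340.7 and 43.8 CPM in BAY 1 to 3, and it was listed at 0 in BAY 4. Its fitted fold change is set by the offset for that library and is not given. Mylpf and Pvalb, a fast myosin light chain and a calcium buffer of fast fibres, were not members, with highest levels of 467.3 and 502.5 CPM in BAY 2.

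Of 16 fast fibre members 14 were above 0 with all libraries and all 16 without VEH 1, and the median log2 fold change went from 2.88 to 4.55. It also rested on other libraries, at 4.59 without BAY 4 but at 1.58 without VEH 4, 1.65 without BAY 1 and 1.51 without BAY 2. The group values of the list were -0.43 ± 3.77 in VEH and 2.31 ± 3.96 in BAY (SD, n = 4 each). Over the 34 muscle-list members, 34, 0, 10 and 2 reached 3 times the receptor level in VEH 1 to 4, and 31, 31, 18 and 0 in BAY 1 to 4. Without VEH 1 the low side of these fold changes was therefore mostly within 3 times the background. Genes shared by fast and slow fibres, 14 members, were all above 0 in either fit, with medians of 1.53 and 2.67. Their median was 0.76 without BAY 2, 0.88 without BAY 1 and 0.94 without VEH 3, but 2.21 without BAY 4. The 4 slow fibre members had medians of -0.83 and 0.21, and their median level was 4.43 in VEH 1 against -0.73 to 0.93 in the other libraries. Summed in CPM, all 12 listed slow fibre genes were high in VEH 1 (999.0), BAY 1 (962.6) and BAY 2 (1002.4), against 203.5 to 350.8 elsewhere, and Mybpc1 of this list was highest in BAY 1 and BAY 2. Myh7, the slow myosin heavy chain, was at 383.6, 45.2, 15.2 and 36.4 CPM in VEH and at 39.3, 47.0, 31.6 and 33.4 CPM in BAY. For Myh7 the high value of VEH 1 was not shared by BAY 1 and BAY 2.

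The TA muscle libraries, in a table normalised separately, give a scale for these values. Against the mean of the TA VEH libraries, the median fast fibre member stood at 6.71%, 0.368%, 0.102% and 0.0861% of its TA level in VEH 1 to 4. In BAY 1 to 4 it stood at 27.6%, 31.6%, 1.31% and 0.196%. Summed over all 57 listed muscle genes, the level ranged from 1462.0 to 36916.7 CPM in VEH and from 2221.0 to 116044.4 CPM in BAY. Summed over all 84 listed bone genes it ranged from 3954.8 to 41339.1 CPM in VEH and from 3552.7 to 32792.7 CPM in BAY. The part of attached muscle in the differences between groups was not tested.

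**Figure D3:**
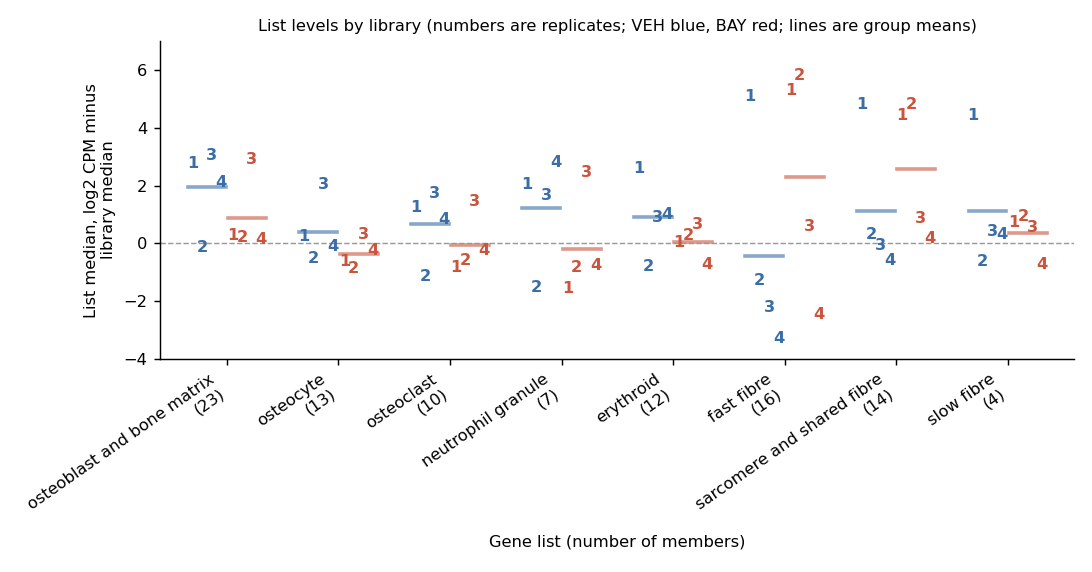
Median centred level of each list in each library, in log2 CPM minus the median member of that library. Digits are replicate numbers, with VEH in blue and BAY in red, and lines are group means. For the fast fibre list VEH 1 (5.08), BAY 1 (5.31) and BAY 2 (5.81) stand above the other 5 libraries, and for the osteoblast list VEH 2 (-0.14) stands below all BAY libraries.

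Promoters of the muscle fibre genes were read because these genes had similar profiles across the libraries. The windows are from RefSeq on GRCm38.p6, 250 bases before to 50 after the gene start, and 23 of 34 muscle members matched an entry. The E-box CAGCTG, a word bound by myogenic factors and the same on both strands, was in 11 of these 23 windows (47.8%), in 6 of 36 bone windows (16.7%), in 3 of 30 marrow windows, in 14.4% of the 6057 matched member windows and in 14.7% of all 27025 windows. GCGTG, the core of the AhR response element, searched on both strands, was in 34.8% of the muscle and 30.6% of the bone windows, in 9 of 30 marrow windows, in 49.6% of member windows and in 30.9% of all windows. A match is a description of letters, not of a bound site. For 3 muscle members, 60 bases around the E-box are shown with its letters in capitals, on the minus strand at chr8:123894964-123895023 for Acta1 and on the plus strand at chr7:19410844-19410903 for Ckm and chr11:67237718-67237777 for Myh4.
Acta1: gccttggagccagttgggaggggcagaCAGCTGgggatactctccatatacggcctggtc
Ckm: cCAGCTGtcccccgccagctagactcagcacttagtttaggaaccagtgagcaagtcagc
Myh4: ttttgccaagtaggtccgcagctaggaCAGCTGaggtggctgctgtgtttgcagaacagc

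The comparison of BAY with VEH over all 8 libraries called 8 of 7680 members (0.104%), where a call needs an unadjusted P under 0.05 by limma together with a 2-fold difference or more. Of these, 4 were higher (0.0521%) and 4 lower (0.0521%) in BAY. On the unadjusted P value alone 26 members passed (0.339%), and none had an adjusted P value under 0.05, the smallest being 0.823 by limma with Benjamini-Hochberg adjustment. After centring the groups did not overlap in 39 members (0.508%). Without centring, the median log2 fold change of all members was 0.38, and 11 members were called higher and 0 lower. With quantile normalisation 10 were called higher and 17 lower, and with voom on the recovered reads 35 higher and 3 lower. None of the 8 was a gene of the bone, marrow or muscle lists, and the median standard error over all members was 0.43 on the log2 scale.

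Dse, the epimerase that makes dermatan sulphate, had the smallest P value. It was at 12.9, 40.5, 21.6 and 32.0 CPM in VEH 1 to 4 and at 12.5, 8.27, 18.8 and 24.7 CPM in BAY 1 to 4, which is 20 to 90 reads in each library. After centring the groups did not overlap, with a log2 fold change of -1.08 (SE 0.34, P = 0.0107 and adjusted P = 0.823 by limma), and the exact permutation P of 0.0286 is the smallest that 4 against 4 allows. Without VEH 1 it was -0.88 (SE 0.33, exact permutation P = 0.0286), no longer a 2-fold difference. Per kilobase, Dse stood below the receptor level in VEH 2, VEH 4, BAY 1, BAY 2 and BAY 4. Dse reached 20 CPM only in VEH 2, VEH 3, VEH 4 and BAY 4, so the level limit itself favoured its difference.

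Bmp2, a bone morphogenetic protein that drives osteoblast formation, was at 18.6, 44.2, 97.8 and 49.5 CPM in VEH and at 11.2, 17.0, 38.2 and 43.0 CPM in BAY. VEH 3 was the highest library, and after centring the groups overlapped. Bmp2 had a log2 fold change of -1.27 (SE 0.54, P = 0.0419 by limma, exact permutation P = 0.114), and of -1.19 (SE 0.59, exact permutation P = 0.171) without VEH 1. Dhx8, an RNA helicase of the spliceosome, went from -1.14 (SE 0.45) to -0.77 (SE 0.38) without VEH 1. Nr4a2, an orphan nuclear receptor induced by activity, went from -1.03 (SE 0.46) to -0.87 (SE 0.48). Nr4a2 reached 20 CPM only in VEH 2, VEH 3, VEH 4 and BAY 3, so the level limit favoured its difference too.

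On the higher side, Pwwp4c on the X chromosome was at 1.12, 35.5, 2.57 and 11.1 CPM in VEH and at 29.8, 25.2, 14.8 and 45.1 CPM in BAY. Its log2 fold change was 1.85 (SE 0.67, P = 0.0221 by limma, exact permutation P = 0.0571), and it belongs to a family of similar copies that may share reads. It was the only gene called with all libraries and also without VEH 1, where it was 1.56 (SE 0.64, exact permutation P = 0.0857). Pwwp4c reached 20 CPM only in VEH 2, BAY 1, BAY 2 and BAY 4, so the level limit favoured its difference. Syn2, a synaptic vesicle protein, was at 2.01, 46.0, 9.21 and 26.9 CPM in VEH and at 40.7, 33.1, 22.9 and 58.0 CPM in BAY, and went from 1.22 (SE 0.47) to 0.85 (SE 0.39) without VEH 1. Tbc1d16, a Rab GTPase-activating protein, went from 1.08 (SE 0.40) to 0.83 (SE 0.36), and Gprin2 from 1.42 (SE 0.59) to 0.96 (SE 0.52). In these 4 genes VEH 1 and VEH 3 were the lowest libraries, which were also the libraries with the lowest receptor levels. All 236 receptor members were above 0 with all libraries, with a median of 0.89, and 157 of them were above 0 without VEH 1, with a median of 0.11. Receptor genes at 20 CPM numbered 0, 768, 15 and 604 in VEH 1 to 4. In BAY 1 to 4 they numbered 197, 131, 140 and 942. The level limit itself therefore favoured receptor members that are higher in BAY. The part of this background in the 4 higher genes was not tested.

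Among members whose groups did not overlap after centring, Tlr9, an endosomal receptor for DNA, had the smallest P value on the higher side. It was at 3.74, 37.7, 7.79 and 24.0 CPM in VEH and at 35.8, 24.0, 27.5 and 43.0 CPM in BAY. Tlr9 had a log2 fold change of 0.96 (SE 0.34, exact permutation P = 0.0286), and of 0.88 (SE 0.35, exact permutation P = 0.0286) without VEH 1. Nsmce3, Tspoap1, Gfod2 and E2f7 followed, with log2 fold changes of 0.73, 0.88, 0.97 and 0.72, which went to 0.65, 0.57, 0.68 and 0.52 without VEH 1. On the lower side Phldb2, a protein of the cell cortex, was at 12.8, 43.3, 24.4 and 39.3 CPM in VEH and at 12.1, 13.6, 14.8 and 37.6 CPM in BAY, with -0.99 (SE 0.32, exact permutation P = 0.0286) and -0.84 (SE 0.33, exact permutation P = 0.0571) without VEH 1. Islr, Nfxl1 and Cdc42se1 had -0.96, -0.77 and -0.73, and -0.76, -0.73 and -0.61 without VEH 1. In CPM the groups overlapped in each of these 9 genes. In CPM the 5 higher genes were lowest in VEH 1 and VEH 3, the libraries with the lowest receptor levels. On the centred scale VEH 4 (-0.54) lay below VEH 3 (-0.36) for Tspoap1. Outside VEH 1 the 5 higher genes stood at 0.474 to 4.25 times the median receptor per kilobase. Phldb2 stood at 0.383 to 0.556 times in the BAY libraries. It reached 20 CPM only in VEH 2, VEH 3, VEH 4 and BAY 4, so the level limit favoured its difference. The part of the background in these genes was not tested.

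Without VEH 1, 30 members were called (0.391%), all of them higher in BAY (0.391%) and 0 lower (0%). On the unadjusted P value alone 40 passed (0.521%), and the smallest adjusted P value was 1.000 by limma. The groups did not overlap in 82 members (1.07%), a count that can only grow when a library is left out. Of the 30 called members, 18 were in the muscle lists, where 34 of the 7680 members belong. Of the 30, 7 reached 20 CPM in none of VEH 2, VEH 3 and VEH 4 and in at least 3 BAY libraries, so that the level limit itself favoured a difference in these genes. They were Myl1, Tnni2, Eno3, Mybpc1 and Mb, which are among the 18, and Ankrd23 and Gm10053, and their calls carry no weight. The other 23 called members include 13 of the muscle lists. From the fast fibre list the 18 included Myh1, Myh2, Myh4, Myl1, Tnni2, Atp2a1, Ckm, Eno3 and Ampd1, which build the contractile filaments, pump calcium and supply energy. Mybpc1 was from the slow fibre list. The shared list gave Mb, Neb, Ryr1, Ldb3, Jph1, Myom2 and Xirp2 among its called genes, which include the oxygen store myoglobin, the giant filament protein nebulin and the calcium release channel. The log2 fold changes of these 18 genes without VEH 1 ran from 1.57 for Jph1 to 6.12 for Myh4. Among the other 12, some are named here after their values were seen. Flnc, Gpd1, Jph2, Ky and Txlnb had TA levels of 177.6 to 793.3 CPM, and Phtf2 and Rab12 of 86.3 and 103.8 CPM. Ampd1, Gpd1, Ky and Pwwp4c reached 20 CPM only in VEH 2, BAY 1, BAY 2 and BAY 4. The level limit thus leaned towards a difference in these genes as well. Of the 23 called genes not among those 7, 22 are also in the TA table. All 22 had a higher mean in TA VEH libraries than in the bone libraries, as did 17.4% of all members in that table. Their median TA level was 872.0 CPM, beside 12.4 CPM for all members.

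Myl1, a fast myosin light chain, was at 63.4, 11.2, 1.77 and 4.37 CPM in VEH and at 311.3, 363.9, 21.9 and 18.3 CPM in BAY. It went from 2.90 (SE 1.64, exact permutation P = 0.171) to 4.37 (SE 1.27) without VEH 1, given as a description for the reason above. Mybpc1, the slow form of myosin-binding protein C, was at 290.3, 4.60, 2.48 and 0.728 CPM in VEH and at 739.8, 804.3, 33.6 and 5.37 CPM in BAY, and went from 3.51 (SE 2.48) to 5.81 (SE 1.86), likewise a description. Its value in VEH 4 is 1.0 read. The gap between BAY 4 and the VEH libraries was narrow in both genes, and BAY 1 and BAY 2 were far above BAY 3. Ankrd23, a titin-associated protein of muscle, went from 2.32 (SE 1.79) to 3.95 (SE 1.35), with the same limit.

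The smallest P value without VEH 1 was that of Gm10053, a gene with a near-identical parent copy whose reads it may share. It is the 1 member that passed the level limit through the BAY libraries alone, so the limit favoured its difference. It was at 13.4, 4.42, 10.4 and 18.3 CPM in VEH and at 36.4, 51.9, 29.1 and 36.7 CPM in BAY, with a log2 fold change of 2.15 (SE 0.62) without VEH 1. Kpna3, an importin of the nuclear pore pathway, was at 9.64, 23.9, 14.5 and 24.0 CPM in VEH and at 31.3, 37.2, 30.6 and 49.4 CPM in BAY, with a log2 fold change of 1.0 (SE 0.29) that fell just short of a call, and an exact permutation P of 0.0286, the smallest that 4 against 3 allows. In CPM Kpna3 was higher in every BAY library than in every VEH library, and on the centred scale this held without VEH 1 only. The lowest P values on the lower side belonged to Pcdhga8 (-0.86, exact permutation P = 0.0286), Dse, Phldb2, Nfxl1 and Adamts14 (-1.23, exact permutation P = 0.143), none of which was called. Pcdhga8, like Dse and Phldb2, reached 20 CPM only in VEH 2, VEH 3, VEH 4 and BAY 4. Adamts14 did so only in the same VEH libraries and BAY 3. The level limit thus favoured a lower value in BAY for these genes.

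**Figure D4:**
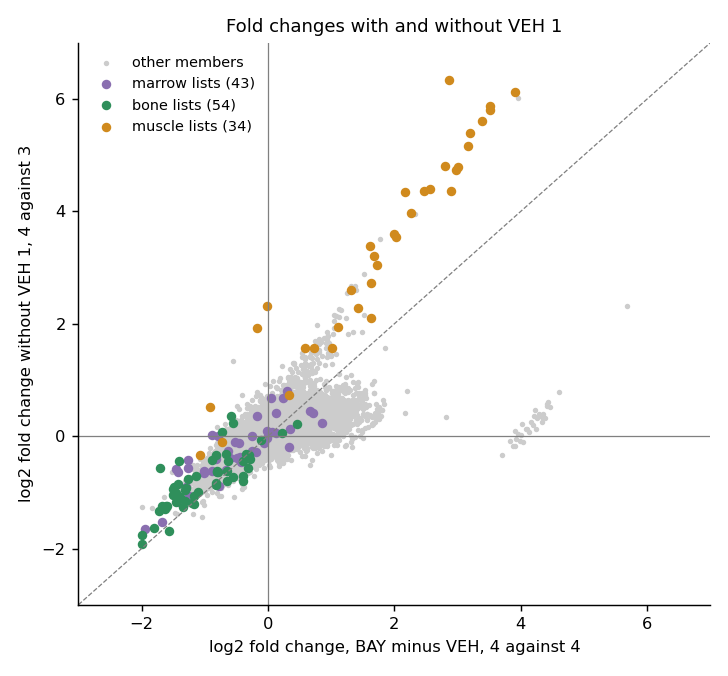
Log2 fold change (BAY minus VEH) of each of the 7680 members with all libraries (horizontal) and without VEH 1 (vertical), with bone, marrow and muscle list members in colour and a dashed line of equal values. Muscle genes lie above the line, bone genes lie below 0 on both axes in most cases, and the grey group at the right, near 4 with all libraries and near 0 without VEH 1, holds the 32 members listed at 0 in VEH 1.

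VEH 1 was not the library on which the calls depended most. Leaving out VEH 2 gave 1118 called members, 482 higher (6.28%) and 636 lower (8.28%), and leaving out BAY 3 gave 246, 80 higher (1.04%) and 166 lower (2.16%). Leaving out any other library gave between 2 and 30. The lists differed in which library they rested on. Without VEH 2, 31 of 54 bone-list members were called lower, among them 18 of 23 osteoblast members, and 15 of 43 marrow-list members were, among them 6 of 7 neutrophil members. In that fit 2 marrow-list members, both of the B lineage list, were called higher, and 1 muscle-list member, of the slow fibre list, lower. It called 0 muscle-list genes higher, and 29 of 236 receptor genes. Without BAY 3, 13 bone-list members were called lower and 1 muscle-list member higher. Without VEH 1, 18 muscle-list members were called higher and 0 bone-list members lower. Of the 18, 13 reached 20 CPM in at least 1 of VEH 2 to 4. Without VEH 2 and BAY 4, the libraries with the highest receptor levels, 476 members were called, 205 higher (2.67%) and 271 lower (3.53%), 19 of them bone-list members, all lower. No member reached an adjusted P value under 0.05 by limma when libraries were left out, the smallest being 0.273 without VEH 2. Array weights, which scale each library by how closely it follows its group, gave 5.93 to VEH 4, 5.18 to BAY 2 and 2.8 to BAY 1 but 0.187 to 0.665 to the other 5 libraries, so the VEH side rested mostly on 1 library. That fit called 502 members higher (6.54%) and 564 lower (7.34%). It called 34 of 54 bone-list members lower and 1 higher, 15 of 43 marrow-list members lower and 3 higher, and 31 of 34 muscle-list members higher.

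**Figure D5:**
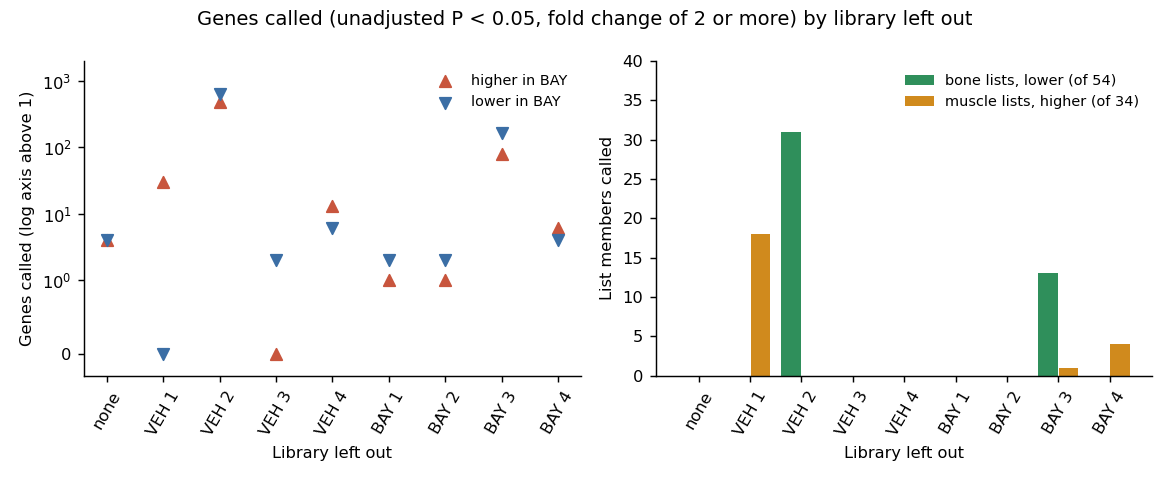
Genes called by the rule above when no library or the named library was left out. Left, members called higher (red) or lower (blue) in BAY, on an axis that is logarithmic above 1. Right, the number of bone-list members called lower and of muscle-list members called higher, which reach 31 without VEH 2 and 18 without VEH 1.

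Other gene groups gave no calls with all libraries or without VEH 1. The 13 protein-coding genes of the mitochondrial genome were at least 3 times above the receptor level in 99.0% of their values, and their median log2 fold change was -0.33 with all libraries and 0.57 without VEH 1. Nuclear genes of oxidative phosphorylation had 12 of 12 members above 0 in either fit, with medians of 0.57 and 1.24. The direction rested on single libraries, as the median was -0.13 without VEH 2 and 0.14 without BAY 2. Levels of these genes were highest in VEH 1, BAY 2 and BAY 1, the 3 libraries with the most muscle RNA. Ribosomal protein genes had 19 of 20 members below 0 with all libraries (median -0.57) and 13 of 20 without VEH 1 (median -0.07). Immediate early and heat shock genes had 18 of 18 members below 0 (median -0.87), and 16 of 18 without VEH 1 (median -0.44). Collagen and fibrous matrix genes had 14 of 15 members below 0 in either fit, with medians of -1.11 and -0.57. Without VEH 2, where 8.28% of all members were called lower, 11 of 15 collagen, 7 of 20 ribosomal protein, 5 of 18 immediate early and 5 of 11 cell cycle members were. The array weights given above called 6.54% of all members higher, among them 9 of 13 mitochondrial and 11 of 12 nuclear oxidative phosphorylation members. They called 9 of 15 collagen members lower, beside 7.34% of all members.

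Ahr itself was not a member. Its level was 4.46, 21.2, 11.7 and 18.2 CPM in VEH and 18.3, 16.5, 12.7 and 38.7 CPM in BAY, highest in the libraries with the highest receptor levels. Of 15 listed genes of the AhR pathway 6 were members, with medians of -0.31 and, without VEH 1, of -0.18, and none was called. Clock genes (14 members) had medians of -0.12 and 0.02, cell cycle genes (11 members) of -0.55 and -0.32, interferon response genes (5 members) of -0.23 and -0.19, and endothelial genes (6 members) of -0.17 and 0.13. The stromal and adipocyte, megakaryocyte, Schwann cell and skin lists had 8, 2, 2 and 1 members, with medians of -0.10, 0.21, 0.02 and 0.71, and of 0.02, 0.10, 0.12 and 0.27 without VEH 1. None of these genes was called with all libraries or without VEH 1.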

How the data were processed

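RNA was sequenced from 8 cortical bone and 8 TA muscle samples, 1 per mouse, and replicate names come from the library names. The authors aligned reads with STAR (version 2.7.8a) to mm39, quantified Ensembl genes in Partek, scaled counts to CPM and deposited log2 values of CPM plus an offset of 0.0001 (bone) or 0.0004 (muscle). The study describes a stranded mRNA kit marked with dUTP, following its account of muscle RNA extraction, and a strand setting for counting is not given in the sources used here. Deposited log2 values were converted back to CPM for the level filter. Reads were recovered from the steps between low values, of which 86.5% to 88.6% up to 50 reads per library were whole to within 0.02.

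Each bone library was centred on its median over the 7680 members, and BAY was compared with VEH by limma (version 3.58.1, R 4.3.3) with lmFit and eBayes with a trend, no covariate, two-sided, and Benjamini-Hochberg adjustment over all members. Fold changes refer to log2 CPM plus offset. Calls needed an unadjusted P under 0.05 together with a 2-fold difference or more, after the rule the study used. Single values were also compared by exact permutation over 70 assignments, or 35 without VEH 1. Exon lengths (GENCODE M39) matched 99.7% of members. Other steps used Python (version 3.11.15) with pandas (version 2.3.3) and scipy (version 1.17.1).

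The members, the 26 gene lists and the tests were chosen with earlier results of these data known. Genes named are fixed marker genes of bone, marrow and muscle with Ahr, listed genes that were called, genes called both with and without VEH 1 without overlap or otherwise the 5 with the smallest P values per direction among non-overlapping genes, and the 5 per direction with the smallest P values without VEH 1. The other genes called with all libraries were named after their values were seen. A few genes meeting these criteria are left unreported here. Libraries of the same replicate number did not deviate together in every pair (correlations of 0.16, -0.09, 0.63 and 0.51 for numbers 1 to 4). Alternatives were other level limits, scalings and variance models, the replicate block and each library left out. Filters on the receptor level and the removal of pairs and trios of libraries were added after seeing the data.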

Additional observations from a re-analysis of the deposited data

Results flagged for a closer look

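In each group of 4 libraries, centred levels of the named genes and list medians were screened for a library whose gap to its nearest neighbour was large against the range of the group, by Dixon's 95% limit for 4 values. The ratio of the gap to the range is given for each. Of 184 groups 25 were marked, and chance marks about 1 in 20 groups, here of genes that move together and so are not independent.

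In the BAY group, BAY 3 stood apart for bone and marrow genes. The ratio was 0.937 for Sparc, 0.933 for Dmp1, 0.932 for Sost, 0.923 for Ctsk, 0.904 for Mmp9 and 0.842 for Ngp. For list medians it was 0.947 for osteoblast and bone matrix genes, 0.924 for all bone genes and 0.952 for macrophage and monocyte genes. BAY 3 was the high library in each of these, and it was the low library for Gprin2 (0.911) and Pwwp4c (0.856). BAY 4 was the low library for Hba-a1 (0.845) and for cartilage and tendon genes (0.921), and BAY 2 for Cdc42se1 (0.866).

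In the VEH group, VEH 2 was the low library for Sparc (0.840), Ctsk (0.862), Mmp9 (0.928), S100a9 (0.839) and Cd74 (0.885). VEH 1 was the high library for the muscle genes Myh7 (0.917), Myh2 (0.911), Ryr1 (0.830) and Xirp2 (0.896), for sarcomere and shared fibre genes (0.831) and for all muscle genes (0.880).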

How the results depend on the processing

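The number of called members depended on the libraries and the variance model. Called with all libraries were 8, 4 higher and 4 lower, and leaving out single libraries gave 2 to 1118 called, 0 to 482 higher and 0 to 636 lower, with 59 to 572 members without overlap against 39. Array weights gave 1066 called (502 higher, 564 lower), 1921 members with an adjusted P value under 0.05 by limma, and a fast fibre median of 7.88 against 2.88. It rested mostly on VEH 4, BAY 1 and BAY 2. Without VEH 1, array weights, whose estimation stopped before its convergence limit, gave 207 (149 higher, 58 lower) with 82 members without overlap. Voom on recovered reads gave 38 (35 higher), quantile normalisation 27 (10 higher, 17 lower), no centring 11 (11 higher, 0 lower, 5 without overlap), log2 CPM plus 1 gave 7 higher and eBayes without a trend 8 higher. A limit of 10 CPM gave 14 (8 lower), of 50 CPM 1 (0 higher, 1 lower, 4 without overlap), and no filter 13 (8 higher), counted among members.

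The replicate numbers do not pair the mice by design. With the replicate block 78 members were called (30 higher, 48 lower), and with the block and without VEH 1 47 (41 higher), with 82 without overlap. The block with all libraries called 3 of 23 osteoblast and 8 of 54 bone-list members lower, and 8 of 16 fast fibre and 11 of 34 muscle-list members higher.

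Among alternatives chosen after seeing the data, at least 3 times the receptor level gave 3 called, none of them among the 8 (1 higher, 2 lower, 6 without overlap), and 17 without VEH 1, of which 11 are among the 30 (16 higher, 1 lower, 14 without overlap). Without VEH 2 and BAY 4 it was 476 (205 higher, 271 lower, 697 without overlap), and without VEH 1, BAY 1 and BAY 2 it was 4 (1 higher, 365 without overlap). The cause of these differences was not tested. Median log2 fold changes, which have no test, ran over all alternatives from -2.48 to -0.34 for the osteoblast list, from -2.91 to -0.07 for the neutrophil list and from -1.44 to 0.22 for the erythroid list, which was above 0 under array weights without VEH 1. For the fast fibre list they ran from 1.30 without VEH 1, BAY 1 and BAY 2 to 7.88 under array weights, and from 1.51 to 4.59 with single libraries left out. Depth limits low values, since 3 reads are 0.432 CPM in VEH 1 and 3.22 CPM in BAY 4, and this covers counting error only.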
